A study of Oryctolagus cuniculus with 8 samples.

Results

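Leukocyte miRNAs were measured in extracellular vesicles, the membrane particles that cells shed into body fluids, from the oviducts and uteri of rabbits. The set was chosen by name, as both arms of the 6 precursors miR-142, miR-146a, miR-146b, miR-150, miR-155 and miR-223. It held 12 of the 579 mature names of the table, written there with the species prefix ocu, as in ocu-miR-155-5p (2479 reads over all libraries), ocu-miR-150-5p (592 reads) and ocu-miR-146a-5p (280 reads). Of these, 8 had at least 1 read and 4 had none. The does were wild-type California x New Zealand white rabbits with 4 to 6 parturitions, with no age stated in the sources used. Every doe of both groups received 25 IU of eCG, a gonadotropin, 48 h before 20 µg of a GnRH analogue that induced ovulation. Tracts were flushed after at least 14 to 15 h, so neither group shows an untreated cycle. The flush volume was 1.0 mL in the oviductal and 2.2 mL in the uterine group, so volume and group cannot be told apart. Fluids of both groups were spun at 300 g and at 10000 g and filtered at 0.22 µm. The oviductal group had 5 libraries of 3 pooled animals each. The uterine group had 3 libraries, titled 12, 3 and 4, of 5 pooled animals each. The pools add up to 30 places while the study used 21 does, and the sources do not tell which doe gave to which pool. So the p-values reflect variation among pools, and pools may share animals.

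A miRNA is a short RNA that guides Argonaute proteins to messenger RNAs, mostly through the seed, the bases near its 5′ end. In blood-forming cells miR-142 is expressed across nearly all lineages and miR-223 is strongest in granulocytes and other myeloid cells. Mature B and T cells carry much miR-150, which represses MYB, while miR-155 is induced when lymphocytes and macrophages are activated. The miR-146 pair is induced by NF-κB signalling and represses TRAF6 and IRAK1 in a feedback loop. Its members miR-146a and miR-146b share a seed and are nearly identical, come from separate genes, and are also made by epithelial and endothelial cells. The uterus and oviduct hold resident leukocytes and are supplied by blood, and their fluids can carry vesicles from any of these cells. In pooled fluid, fewer cells of a type and less RNA per cell cannot be told apart.

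Depth limits the reading of these low-abundance miRNAs. The libraries held 42684 to 569087 miRNA reads, counting 1 row per name. Oviductal replicates 2 and 3 were the shallowest, at 47598 and 42684 reads. There, 3 reads corresponded to 63.0 and 70.3 CPM, counts scaled to a library sum of 1000000, and to 5.27 to 12.9 CPM in the other 6 libraries. A count of 0 was taken to allow up to 3 reads, and the limit in CPM is that of the library. Intervals of counts above 0 are exact binomial (Clopper-Pearson, 95%). Limits, intervals and counting SDs cover the counting error of reads only. Reads without molecular identifiers are not independent molecules, so the error in molecules may be larger.

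The set as a whole was a minor part of the cargo, with 4068 reads in all libraries together. It held 0.138%, 0.231%, 0.157%, 0.249% and 0.125% of reads in oviductal replicates 1 to 5, a mean of 0.180% ± 0.0563 (SD, n = 5). It held 0.144%, 0.107% and 0.374% in uterine replicates 12, 3 and 4, a mean of 0.208% ± 0.144 (SD, n = 3). Uterine replicate 4 lay above every oviductal library (interval 0.352% to 0.397%) and uterine replicate 3 below every one, so the groups overlapped. Without uterine replicate 4 the uterine mean was 0.126%, and without miR-148a-3p, the most abundant miRNA, in the denominator the means were 0.260% for the oviductal and 0.346% for the uterine group.

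The label of the set was checked against miR-142, found across blood lineages, and miR-223, of myeloid cells. Both were scarce. No read of miR-142-5p was found in any library, and miR-142-3p had reads in 4 of the 8 libraries, 63 in all. At least 1 arm of miR-223 had reads in 6 of the 8 libraries, 241 reads in all. In uterine replicate 12 miR-223-5p held 19.7% of the set's reads, beside 18.5% for miR-146a-5p. In uterine replicate 4 miR-223-3p and miR-223-5p held 7.07% and 4.68%. Neither arm had a read in oviductal replicate 3 or uterine replicate 3. Most reads of the set came instead from miR-155-5p, which made up 53.7% to 78.4% of the set's reads in the oviductal libraries and 46.8% to 58.5% in the uterine ones. The set is therefore described by its members one by one, and the cells that shed them were not tested.

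**Figure D1:**
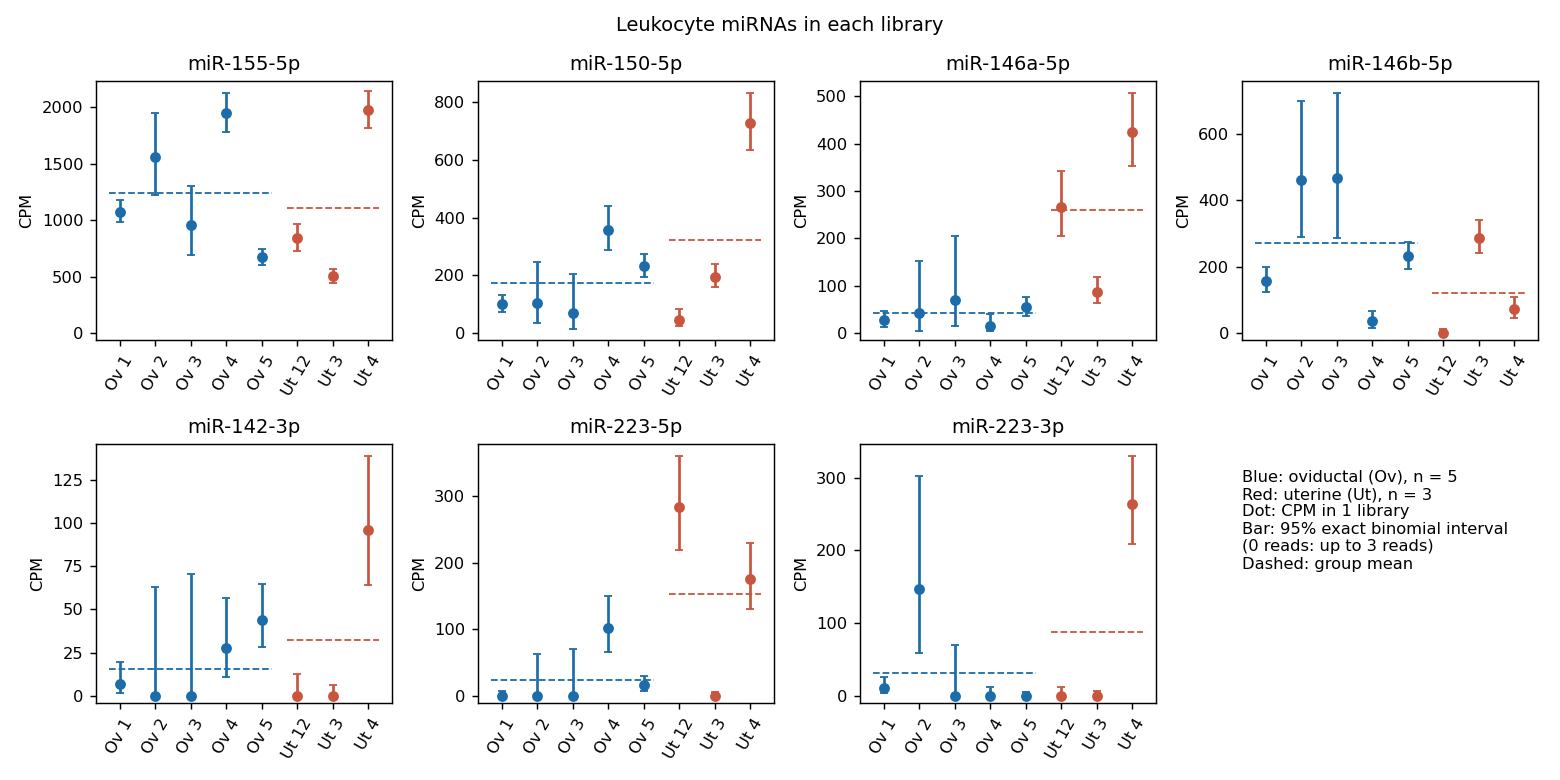
Level of 7 leukocyte miRNAs in CPM (vertical axis, 1 panel per miRNA) in 5 oviductal (blue) and 3 uterine (red) libraries. Dots are libraries, bars are 95% exact binomial intervals (up to 3 reads where the count was 0) and dashed lines are group means. The 3 uterine dots lie above all oviductal dots for miR-146a-5p and in no other panel.

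The most abundant member in every library was miR-155-5p. In the oviductal libraries it stood at 1074, 1555, 961, 1948 and 669 CPM, from 474, 74, 41, 496 and 381 reads. In the uterine libraries 12, 3 and 4 it stood at 843, 502 and 1977 CPM, from 196, 241 and 576 reads. Its means were 1241 ± 508 (SD, n = 5) and 1107 ± 772 CPM (SD, n = 3). The highest values, in oviductal replicate 4 and uterine replicate 4, were nearly the same, and the groups overlapped over most of their range. Counting of reads alone would give an SD of 115 CPM in the oviductal and 61.8 CPM in the uterine group. The spread between pools was several times larger than this error of read counts. The same miRNA ranked between 41 and 66 among all names in each library.

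Next in total was miR-150-5p, with 592 reads. Oviductal levels were 99.7, 105, 70.3, 357 and 232 CPM, with only 5 and 3 reads in replicates 2 and 3. Uterine levels in replicates 12, 3 and 4 were 47.3, 196 and 728 CPM. The lowest and the highest of all 8 values were thus both uterine, and the oviductal values lay between them. The means were 173 ± 120.5 CPM (SD, n = 5) in the oviductal and 324 ± 358 CPM (SD, n = 3) in the uterine group, with counting SDs of 34.3 and 32.2 CPM.

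Of the NF-κB-induced pair, miR-146a-5p was low in oviductal vesicles, at 27.2, 42.0, 70.3, 15.7 and 54.5 CPM in replicates 1 to 5. These levels rest on 12, 2, 3, 4 and 31 reads. The uterine levels in replicates 12, 3 and 4 were 267, 87.5 and 426 CPM, from 62, 42 and 124 reads. All 3 uterine values lay above all 5 oviductal values. The margin was narrow at its closest point: uterine replicate 3, at 87.5 CPM (interval 63.1 to 118), stood next to oviductal replicate 3, at 70.3 CPM (interval 14.5 to 205). The means were 41.9 ± 21.6 CPM (SD, n = 5) and 259.9 ± 169 CPM (SD, n = 3). The oviductal SD was no larger than the 23.4 CPM that counting alone would give, whereas the uterine SD exceeded its counting value of 30.5 CPM.

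Its seed partner miR-146b-5p went through a different set of libraries. In oviductal replicates 1 to 5 it was at 159, 462, 469, 35.4 and 232 CPM, from 70, 22, 20, 9 and 132 reads. The uterine levels in the same order were 0, 288 and 72.1 CPM, from 0, 138 and 21 reads. The library with the fewest reads of miR-146b-5p, uterine replicate 12, was one of the 2 richest in miR-146a-5p, and 0 of its 232546 reads allows up to 12.9 CPM. The means were 271 ± 191 CPM (SD, n = 5) and 119.9 ± 149.6 CPM (SD, n = 3), and the groups overlapped. Of the other arms of the pair, miR-146b-3p had 1 read, in oviductal replicate 1, and miR-146a-3p had none.

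The balance within the pair does not depend on how libraries are scaled. As a share of the reads of both 5p forms, miR-146a-5p made up 14.6%, 8.33%, 13.0%, 30.8% and 19.0% in oviductal replicates 1 to 5. In uterine replicates 12, 3 and 4 it made up 100% of 62 reads (interval 94.2% to 100%), 23.3% of 180 reads (17.4% to 30.2%) and 85.5% of 145 reads (78.7% to 90.8%). In 2 of the 3 uterine libraries the pair was mostly miR-146a-5p, while the remaining one, uterine replicate 3, lay within the oviductal range. The highest oviductal share rests on 13 reads (interval 9.09% to 61.4%). Taken as 1 seed group, the 2 forms summed to 313 ± 208 CPM in the oviductal (SD, n = 5) and 379.8 ± 116 CPM in the uterine group (SD, n = 3), with ranges of 51.1 to 539 and 267 to 498 CPM. The sum thus overlapped between the groups where miR-146a-5p alone did not. This share was chosen after the values were seen and was not tested. Because the forms are nearly identical and the counting program is unknown here, reads of the one could have been assigned to the other.

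**Figure D2:**
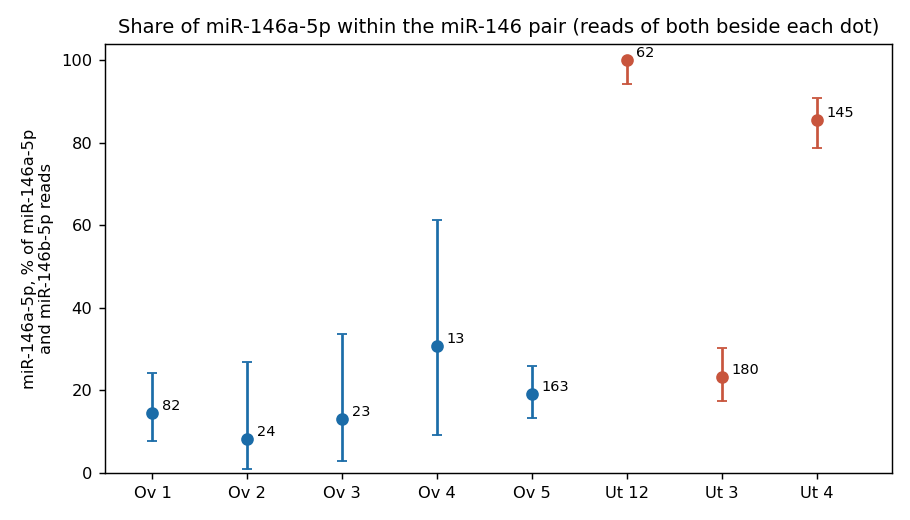
Percent of the reads of miR-146a-5p and miR-146b-5p together that were miR-146a-5p (vertical axis) in 5 oviductal (blue) and 3 uterine (red) libraries. Bars are 95% exact binomial intervals and the number beside each dot is the reads of both forms; uterine replicates 12 and 4 lie at 100% and 85.5%, and the others between 8.33% and 30.8%.

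The broad blood-cell miRNA miR-142-3p had 3, 0, 0, 7 and 25 reads in oviductal replicates 1 to 5 and 0, 0 and 28 reads in uterine replicates 12, 3 and 4. The corresponding levels above 0 were 6.79, 27.5 and 43.9 CPM in oviductal replicates 1, 4 and 5 and 96.1 CPM in uterine replicate 4. Uterine replicate 4 was thus highest here as well, and the other uterine libraries allow up to 12.9 and 6.25 CPM. The absence of reads in oviductal replicates 2 and 3 allows up to 63.0 and 70.3 CPM, more than any other oviductal level.

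Both arms of the myeloid miRNA miR-223 were seen, mostly in separate libraries. The 3p arm, usually the main product, had 5 and 7 reads in oviductal replicates 1 and 2 and 77 reads in uterine replicate 4, and none elsewhere. The 5p arm had 26 and 9 reads in oviductal replicates 4 and 5 and 66 and 51 reads in uterine replicates 12 and 4. Only uterine replicate 4 held both arms, at 264 CPM for 3p and 175 CPM for 5p. In uterine replicate 12 the 5p arm stood at 284 CPM with no 3p read, which allows up to 12.9 CPM. No read of either arm was found in oviductal replicate 3 or uterine replicate 3. Over all libraries the 5p arm had 152 and the 3p arm 89 reads.

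In the other precursors 1 arm took nearly all reads. The ratio of 5p to 3p arms was to be compared by limma, but none of the 6 precursors met the minimum of 10 reads on each arm and a read in every library. For miR-155 the 3p arm had 0 of 2479 reads, which allows a share of up to 0.121%. The bound was 0.507% for miR-150-3p and 1.07% for miR-146a-3p. For miR-142 it was the 5p arm that had no reads, with a bound of 4.76% from 63 reads.

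The question of the series, which miRNAs differ between oviductal and uterine vesicles, was put to the members within a fit over all 178 miRNAs with enough reads (edgeR quasi-likelihood test). Of the 12 names, 5 passed the filter on low counts: miR-146a-5p, miR-146b-5p, miR-150-5p, miR-155-5p and miR-223-5p. The last of these had no reads in 3 oviductal libraries and 1 uterine library. Of the 5 tested, 0 passed an adjusted p of 0.05 by edgeR, where 1.69% of all tested miRNAs did. By unadjusted edgeR p under 0.05 the count was 1 of 5, against 15.7% of all tested. Values scaled by edgeR's TMM factors, which adjust for differences in composition, did not overlap between the groups for 1 of 5, against 13.5% of all tested. With so few members these shares do not set the members apart from the background.

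The miRNA that stood out in both counts was miR-146a-5p. Its log2 fold change, uterine over oviductal, was 2.95 ± 1.01 (SE), with a 95% interval of 0.83 to 5.07, an unadjusted p of 0.00905 and an edgeR adjusted p of 0.134. It was the 12th smallest p of the 178. Scaled by TMM, its closest values were 131 CPM in uterine replicate 3 and 54.6 CPM in oviductal replicate 3, and all 3 uterine libraries were above all 5 oviductal ones. The result therefore did not pass the correction by edgeR. DESeq2, another count model, gave a log2 fold change of 2.97 with an adjusted p of 0.0206, past the threshold that 8.15% of the miRNAs with a DESeq2 adjusted p passed. By limma-voom the adjusted p was 0.0894.

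Across all 18 alternative settings the log2 fold change of miR-146a-5p stayed between 2.63 and 3.16, while the adjusted p ran from 0.0206 to 0.998 and passed in 1. The highest, 0.998 and 0.613, came from edgeR fits with a replicate block by title and by library number. Several of those numbers hold only 1 library, so the blocked fits had little power. The highest edgeR adjusted p without a block was 0.377, without uterine replicate 12, which also gave the lowest log2 fold change. Of the fits that leave out 1 library, the one without uterine replicate 3 gave the smallest edgeR adjusted p, 0.0749, at a log2 fold change of 3.05.

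**Figure D3:**
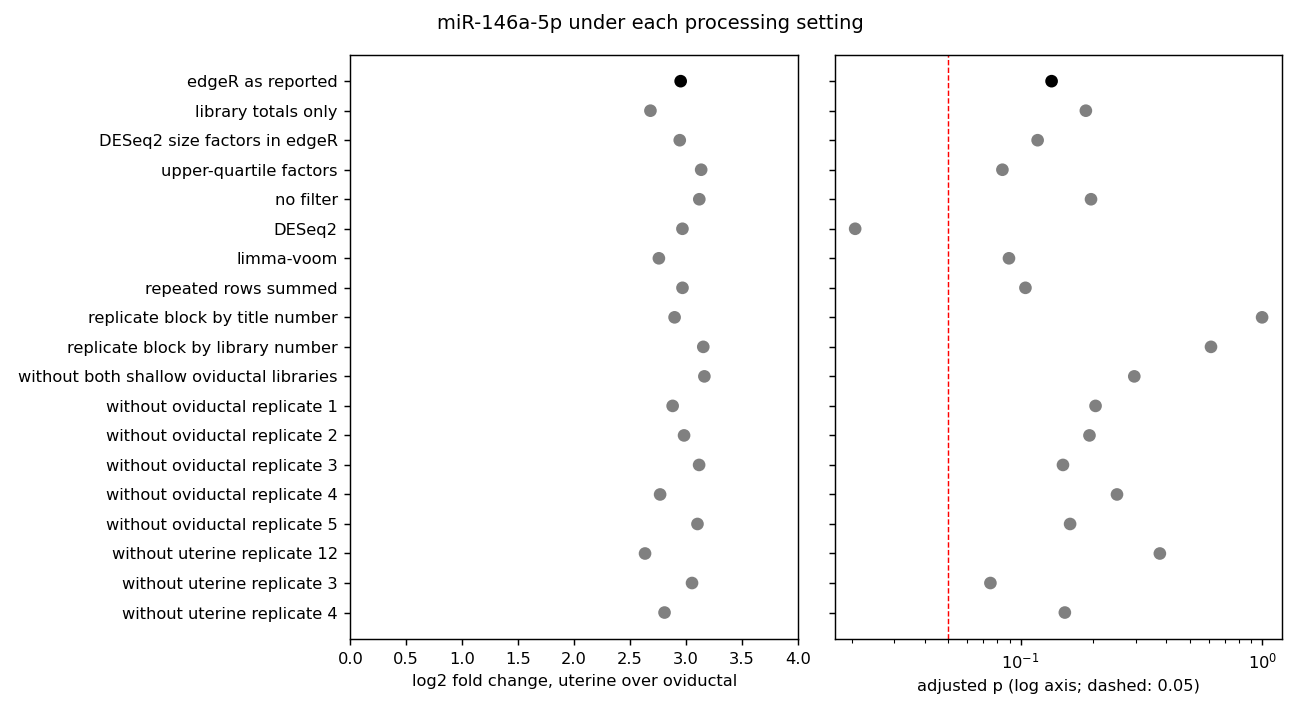
Log2 fold change of miR-146a-5p, uterine over oviductal (left), and its adjusted p on a log axis (right) under the reported edgeR fit (black) and 18 alternatives (grey). The dashed line marks an adjusted p of 0.05; the fold changes lie between 2.63 and 3.16, and only the DESeq2 point lies left of the line.

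The other tested members had wide intervals. For miR-155-5p the log2 fold change was 0.03 ± 0.56 (SE), with an interval of -1.15 to 1.22 and an edgeR adjusted p of 0.986. Its sign turned with the scaling, to -0.16 with library totals only. The interval spans more than 1 log2 unit in either direction, so equal levels were not shown. For miR-150-5p the log2 fold change was 0.94 ± 0.90 (SE), with an interval of -0.96 to 2.84 and an edgeR adjusted p of 0.733. It was 0.17 without uterine replicate 4, the library with the most miR-150-5p, 1.48 without oviductal replicate 4 and 0.61 without oviductal replicates 2 and 3.

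For miR-146b-5p the log2 fold change was -0.45 ± 1.18 (SE), with an interval of -2.93 to 2.03 and an edgeR adjusted p of 0.929. It moved to -1.14 with library totals only and to -1.44 by limma-voom. Single libraries also moved it widely, to 0.025 without uterine replicate 12 and to -2.98 without uterine replicate 3 (edgeR adjusted p 0.196). The difference between the changes of miR-146a-5p and miR-146b-5p was not tested. For miR-223-5p the log2 fold change was 2.71 ± 1.60 (SE), with an interval of -0.67 to 6.09 and an edgeR adjusted p of 0.461, and it was 1.48 without uterine replicate 12. Over the 5 tested members, 4 values were positive and the median was 0.94, where 48.9% of all tested miRNAs were positive with a median of -0.02.

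**Figure D4:**
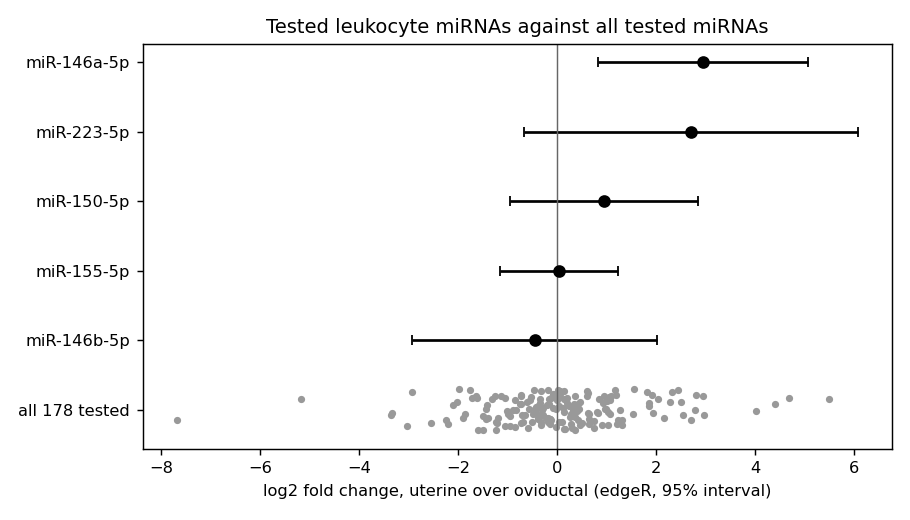
Log2 fold change, uterine over oviductal, of the 5 tested leukocyte miRNAs (black, with 95% intervals from edgeR) and of all 178 tested miRNAs (grey dots, spread vertically at random for display). The interval of miR-146a-5p, 0.83 to 5.07, is the only one of the 5 that lies wholly above 0; intervals are not adjusted for the number of miRNAs.

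Other miRNAs of immune cells were read from 3 lists. Of the list linked to inflammatory signals 7 were tested and 0 were past the edgeR threshold, with 3 positive and 4 negative values and a median of -0.18. Its most abundant members were miR-21-5p, a broadly expressed miRNA that rises in activated cells, and miR-125b-5p, a regulator of blood-cell differentiation. The level of miR-21-5p was 8751 ± 1423 CPM in oviductal (SD, n = 5) and 10274 ± 3843 CPM in uterine vesicles (SD, n = 3), and its log2 fold change was 0.60 ± 0.39 (SE). That of miR-125b-5p was 6755 ± 988 and 3225 ± 2401 CPM, and its log2 fold change was -0.85 ± 0.46 (SE). Their group means in CPM lay above those of every leukocyte member, and neither passed the test (edgeR adjusted p 0.517 and 0.426).

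Of the list of lymphocyte development 12 were tested, 0 past the edgeR threshold, with 5 positive and 7 negative values and a median of -0.10. Its most abundant members were miR-92a-3p of the miR-17/92 cluster, with a log2 fold change of -0.74, then miR-29a-3p with 0.09. Of the myeloid list 2 were tested and 0 were past the threshold. In it miR-24-3p had a log2 fold change of -0.01, while miR-24-2-5p, the opposite arm of one of its precursors, was at 2.97 ± 1.23 (SE) with an edgeR adjusted p of 0.188. At an unadjusted edgeR p under 0.05 the counts were 1, 0 and 1 for the 3 lists, against 15.7% of all tested. TMM-scaled values did not overlap between the groups for 3 of 7, 0 of 12 and 1 of 2 members, against 13.5% of all tested. By adjusted p DESeq2 and limma-voom called none of them. DESeq2 gave an adjusted p to only 135 of the 178 miRNAs, and those without one could not be called.

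Blood was followed by the erythrocyte miRNAs miR-451, miR-144 and miR-486, of which 4 of 5 names in the table had reads. They held 0.0922% to 0.288% of oviductal reads and 0.362%, 0.123% and 0.768% in uterine replicates 12, 3 and 4. Uterine replicate 4 was highest in both the erythrocyte and the leukocyte miRNAs, and uterine replicate 3 was lowest in the leukocyte and second lowest in the erythrocyte miRNAs. In uterine replicate 12 the erythrocyte share exceeded every oviductal library while the leukocyte share did not. The red-cell miRNA miR-451-5p had 2094, 571 and 3621 CPM in uterine replicates 12, 3 and 4, the same order as miR-146a-5p, against 106 to 1160 CPM in the oviductal libraries. The level of miR-486-5p was 1453, 627 and 4009 CPM in the same uterine libraries and 491 to 2427 CPM in the oviductal ones, so the groups overlapped, with a log2 fold change of 0.44. In another order, miR-144-5p had 73.1, 31.3 and 0 CPM in the uterine libraries and no oviductal read. Its other arm, miR-144-3p, had reads only in uterine replicate 4, at 51.5 CPM from 15 reads. The liver miRNA miR-122-5p, which circulates in blood, had yet another order, at 3057, 579 and 299 CPM in uterine replicates 12, 3 and 4 and 61.5 to 588 CPM in the oviductal libraries. The log2 fold changes of miR-451-5p and miR-122-5p were 2.16 and 2.79, neither past the edgeR threshold (adjusted p 0.107 each). By edgeR p they ranked 6th and 8th of the tested miRNAs, where miR-146a-5p ranked 12th. The part of blood in the levels of the leukocyte miRNAs was not tested.

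**Figure D5:**
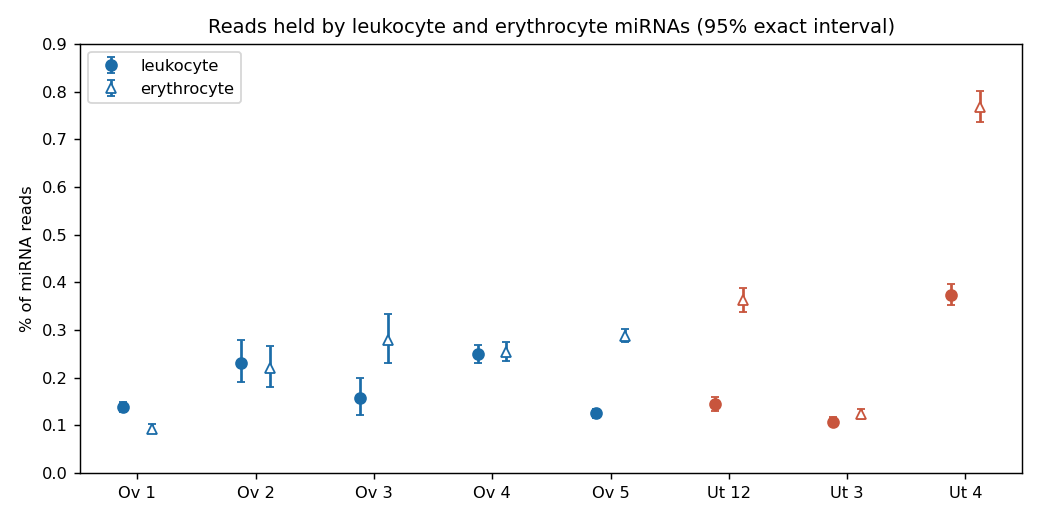
Percent of miRNA reads held by the leukocyte (filled circles) and the erythrocyte miRNAs (open triangles) in 5 oviductal (blue) and 3 uterine (red) libraries, with 95% exact binomial intervals. Uterine replicate 4 is highest for both sets, at 0.374% and 0.768%.

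Markers of the tissue itself also varied between the libraries richest and poorest in miR-146a-5p. The muscle and mesenchyme miRNAs held 0.381% to 0.471% of oviductal reads and 2.54%, 0.560% and 4.69% of uterine replicates 12, 3 and 4, with reads for 6 of 10 names. That share is mostly miR-143-3p, at 22297, 4735 and 44325 CPM in uterine replicates 12, 3 and 4. Its log2 fold change was 2.81 (edgeR adjusted p 0.00261), among the 1.69% of all tested miRNAs past the threshold. By contrast, miR-1-3p had 2322, 754 and 120 CPM in the same libraries. The highest value of miR-133a-3p was oviductal, 231 CPM in replicate 2. The miR-200 family of epithelial cells held 3.39% to 5.09% of oviductal reads and 0.470%, 2.36% and 1.44% in the same uterine libraries. Of the 5 miRNAs of that list only miR-200c and miR-141 were matched in the table, with 4 names, and the share is mostly miR-200c-3p. The log2 fold change of miR-200c-3p was -1.13 and that of miR-141-3p 0.30, neither past the edgeR threshold (adjusted p 0.269 and 0.894). The multiciliated-cell miRNAs held 2.77% to 6.12% of oviductal reads and 0.495%, 3.38% and 1.33% in the uterine libraries. Uterine replicate 3, lowest of the uterine libraries in miR-146a-5p, was nearest to the oviductal group in the muscle and epithelial shares. In the multiciliated share it lay within the oviductal range. Single members differed from the shares. For miR-1-3p, at 0 to 93.7 CPM in the oviductal libraries, uterine replicate 4 was nearest. For miR-449a-5p, uterine replicate 3 had no read and uterine replicate 4 had 487 CPM. The oviductal libraries had 0 to 102 CPM of miR-449a-5p. The part of these differences in the miR-146a-5p values was not tested.

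By Pearson's r of log2(CPM + 1) over the 8 libraries, the tested miRNAs most like miR-146a-5p were miR-451-5p (r = 0.927), miR-379-5p (0.903) and miR-143-3p (0.886). Those most like miR-146b-5p were miR-34c-3p (0.943), miR-335-3p (0.930) and miR-148a-5p (0.926). For miR-150-5p they were miR-222-3p (0.887), miR-24-3p (0.818) and miR-500-3p (0.792), for miR-155-5p miR-22-3p (0.848), let-7b-5p (0.826) and miR-20a-5p (0.819), and for miR-223-5p miR-185-5p (0.878), miR-532-5p (0.812) and miR-676-3p (0.810). The edgeR fit gave miR-502a-3p the same values as miR-500-3p, so these names cannot be told apart here. No tested member was among the nearest miRNAs of another. Between members, r ran from -0.79 for miR-146b-5p with miR-223-5p to 0.45 for miR-146a-5p with miR-223-5p, and was 0.42 for miR-150-5p with miR-155-5p. These values describe 8 libraries that share depth and composition, and the named miRNAs were picked as the highest over all other tested ones. Group means were not removed, so r also holds any difference between the groups. Those named for miR-146a-5p all had a higher uterine than oviductal mean CPM.

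In RefSeq's rabbit assembly mOryCun1.1, which is not the build of the deposited table, all 6 precursors had a gene of their own. No 2 of the precursors neighboured each other, so the members are separate loci.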

How the data were processed

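Small RNA of vesicles from a size exclusion column was sequenced, per the labels' protocols. The authors deposited counts, as whole reads for each mature miRNA on each precursor, and RPM, which equal the deposited counts over the column sum per 1000000 within 0.005. Per the submitters' processing notes the build is OryCun2.0 and FastQC is the listed tool; aligner and counter are not given in the sources used. Of the 615 rows, 35 names stood on more than 1, none of them a leukocyte name, and the one richest in reads was used. CPM were computed over 1 row per name. Groups were compared on the counts with edgeR 4.0.16 (quasi-likelihood test, robust, TMM, filterByExpr, Benjamini-Hochberg over all tested miRNAs, threshold 0.05) under R 4.3.3; SE and intervals come from the F statistic. The procedure was also run on simulated data, with the same spread for every miRNA and independent libraries. That setting is simpler than these pools. Alternatives used DESeq2 1.42.0, limma 3.58.1, other scalings and filters, blocks and the removal of libraries. Named were all members, the 3 most alike of each tested member and the 2 most abundant tested miRNAs of each immune list. The members and lists were chosen with earlier results of these data known.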

Additional observations from a re-analysis of the deposited data

Results flagged for a closer look

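Within the 5 oviductal libraries, 1 library stood far from the other 4 in each of 3 measures, a different one each time, by the gap to its nearest neighbour over the range of the group. Oviductal replicate 2 had 147 CPM of miR-223-3p, from 7 reads, where the others had 0 to 11.3 CPM. Oviductal replicate 4 had 102 CPM of miR-223-5p, from 26 reads, where the others had 0 to 15.8 CPM. Oviductal replicate 1 had 2.26 CPM of miR-146b-3p, the only read of that arm, so its distance follows from a single read and shows nothing of the library. In all, 11 such groups of values were examined. Chance alone flags about 1 in 20, a rate that need not hold for these 3, where most of the 5 counts were 0 or a few reads.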

How the results depend on the processing

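The count of 0 leukocyte miRNAs past the threshold by edgeR became 1 by DESeq2 (miR-146a-5p at 2.97, adjusted p 0.0206). It was 0 in all other alternatives run. DESeq2 gave no adjusted p for miR-223-5p, which could not be called there. The count over all miRNAs, 3, was 1 with library totals only, 6 with upper-quartile factors, 13 with no filter, 11 by DESeq2, 1 by limma-voom and 7 with repeated rows summed. It was 0 by edgeR without both shallow oviductal libraries (20 at an unadjusted p under 0.05). Leaving out 1 library gave 1 to 27: 27 without uterine replicate 3 (12 higher, 15 lower), 9 without uterine replicate 4, and 1 each without oviductal replicate 2 and without uterine replicate 12. Over all tested miRNAs the median log2 value was -0.02, and it shifted to -0.31 with library totals and to 0.19 with upper-quartile factors. With a replicate block by title number or by library number the edgeR count was 0 (8 and 11 at an unadjusted p under 0.05). Several numbers hold only 1 library, so the group change in these fits rests on the numbers with both groups. The blocked fits therefore had little power, and their count of 0 decides nothing. Same-numbered libraries did not deviate together (r of -0.15, -0.17 and -0.08 for numbers 1, 3 and 4), and the numbers were not taken as pairs. Number 1 sets oviductal replicate 1 beside the uterine library titled 12, whose library name has the number 1. Whether that library joins pools is unknown here, as is whether pools share does. Signs turned for miR-146b-5p, from -0.45 to 0.48 with the block by title number and 0.27 without both shallow libraries, and ran from -2.98 to 0.025 on leaving out 1 library. For miR-155-5p they turned from 0.03 to -0.16 with library totals only and to -0.13 and -0.11 with the replicate block by title and by library number, and ran from -0.21 to 0.37 on leaving out 1 library. On leaving out 1 library miR-146a-5p ran from 2.63 to 3.12, miR-150-5p from 0.17 to 1.48 and miR-223-5p from 1.48 to 3.12. With the replicate block by title number and by library number miR-223-5p was at 0.46 and 3.86, and miR-150-5p at 1.50 and 0.74. The oviductal share of the set was 0.260% without miR-148a-3p in the denominator. Leaving out 1 library gave 0.163% to 0.194% for the oviductal and 0.126% to 0.259% for the uterine share. The alternatives for arm ratios gave no value, because only miR-155 met the alternative minimum and its 3p arm had no reads. The causes of these changes were not tested.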
